A study of Mus musculus with 6 samples.

Results

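Circadian clock genes were followed in the single-cell transcriptomes of pancreatic tumours grown in mice. The set held 10 of the 32285 genes in the deposited count files, namely Per1, Per2, Per3, Nr1d1, Nr1d2, Dbp, Tef, Arntl, Clock and Ciart, taken by symbol. All 10 were found once each. The tumours came from KPC cells, mouse pancreatic cancer cells from a genetically engineered model with a Pdx1-driven Cre, which were placed in the pancreas of wild-type C57BL/6 mice. The injected cells carried a control vector (OE-Vector) or an Mlkl overexpression vector (OE-MLKL). The sex of each host is not given in the sources used here. The mice were injected at 6 to 8 weeks of age, and primary tumours were taken 4 weeks later. Tumour cells and host immune cells of a library thus came from 1 mouse, and only the tumour cells carried the vector. The labels name 3 tumours in each group, and the count matrices of OE-Vector 1 and of all 3 OE-MLKL tumours were analysed here. The hour of the day at which each tumour was taken is not given in the sources used here, so no circadian time can be assigned to a library.

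The mammalian clock is a feedback loop that runs in most cell types. CLOCK and ARNTL (also called BMAL1) pair and bind E-box sequences of the Per and Cry genes, whose proteins then inhibit the pair. The same pair drives Nr1d1 and Nr1d2, which encode the REV-ERB receptors that repress Arntl, as well as Dbp and Tef, which encode PAR bZIP factors that bind D-box sequences, and Ciart, which encodes a further repressor. In mouse tissues the transcripts of Nr1d1 and Dbp peak ahead of those of Per2, and Arntl peaks opposite to Nr1d1. Per1 is also induced directly by glucocorticoids and by acute stimuli, outside this loop.

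Promoter sequences show which of these elements lie near the starts of the members. RefSeq windows of 300 bases (250 before to 50 after the start, GRCm38.p6) were found for 9 of the 10 members, 14 windows in all. Per2 had no window and was not searched. Both strands were searched. The E-box, spelled CACGTG, is the sequence bound by the CLOCK and ARNTL pair and was held by 7.15% of 32851 mouse windows. A variant E-box that is also described for clock genes, spelled CACGTT, was held by 4.68% of them. The D-box of the PAR bZIP factors, spelled TTANGTAA, was held by 2.32%. The element bound by the REV-ERB receptors, spelled TAGGTCA, was held by 2.61%. A match to 1 of these motifs was found in windows of 6 members, and 1 such window of each is shown 5′ to 3′ with the match in capitals. A match is a description of letters and not a binding site.
Per1 (chr11:69098699-69098998, plus strand): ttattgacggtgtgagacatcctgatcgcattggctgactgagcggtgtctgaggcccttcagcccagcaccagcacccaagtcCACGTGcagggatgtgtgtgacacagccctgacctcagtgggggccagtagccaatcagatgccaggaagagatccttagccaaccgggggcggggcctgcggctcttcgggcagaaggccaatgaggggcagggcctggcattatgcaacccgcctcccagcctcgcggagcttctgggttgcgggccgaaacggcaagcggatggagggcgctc
Tef (chr15:81811164-81811463, plus strand): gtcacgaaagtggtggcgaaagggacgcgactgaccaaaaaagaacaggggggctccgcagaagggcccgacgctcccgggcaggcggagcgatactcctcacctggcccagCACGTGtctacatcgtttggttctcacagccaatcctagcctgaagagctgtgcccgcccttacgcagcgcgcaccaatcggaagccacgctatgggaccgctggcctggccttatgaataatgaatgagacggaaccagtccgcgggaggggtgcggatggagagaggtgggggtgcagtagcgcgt
Ciart (chr3:95882179-95882478, minus strand): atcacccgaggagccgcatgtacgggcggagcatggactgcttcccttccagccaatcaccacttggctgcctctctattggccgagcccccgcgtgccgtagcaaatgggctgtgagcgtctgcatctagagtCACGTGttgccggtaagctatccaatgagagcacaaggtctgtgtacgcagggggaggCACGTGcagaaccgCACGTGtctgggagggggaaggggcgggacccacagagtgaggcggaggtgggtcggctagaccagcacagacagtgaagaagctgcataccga
Nr1d1 (chr11:98775328-98775627, minus strand): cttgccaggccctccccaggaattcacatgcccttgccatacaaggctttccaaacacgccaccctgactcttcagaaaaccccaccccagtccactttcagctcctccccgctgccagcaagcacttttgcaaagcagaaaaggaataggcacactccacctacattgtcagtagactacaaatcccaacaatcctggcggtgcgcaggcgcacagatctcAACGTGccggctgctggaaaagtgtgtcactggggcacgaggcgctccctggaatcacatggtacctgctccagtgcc
Per3 (chr4:151044616-151044915, minus strand): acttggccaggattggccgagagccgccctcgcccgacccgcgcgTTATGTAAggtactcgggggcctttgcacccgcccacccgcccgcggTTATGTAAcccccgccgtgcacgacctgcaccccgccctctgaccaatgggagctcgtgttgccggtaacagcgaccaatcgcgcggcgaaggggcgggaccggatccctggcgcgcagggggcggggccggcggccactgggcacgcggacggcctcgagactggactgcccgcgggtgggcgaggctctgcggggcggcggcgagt
Arntl (chr7:113207261-113207560, plus strand): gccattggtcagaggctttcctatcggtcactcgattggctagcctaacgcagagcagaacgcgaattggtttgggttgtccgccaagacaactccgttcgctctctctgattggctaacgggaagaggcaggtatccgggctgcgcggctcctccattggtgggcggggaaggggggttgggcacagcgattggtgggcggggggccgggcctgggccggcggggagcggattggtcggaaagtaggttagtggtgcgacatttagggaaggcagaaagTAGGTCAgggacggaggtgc
The Per1 window shown held the E-box 166 bases before the start, and the Tef window shown held it 138 bases before. A second Tef start had the E-box 127 bases before, and a second Per1 window held no match. Ciart carried 3 copies, at 116, 58 and 44 bases before the start. In Nr1d1 the variant E-box lay 28 bases before the start on the opposite strand, so that the capitals there show its reverse complement. Per3 held the D-box at 205 and 158 bases before the start. The element bound by the REV-ERB receptors was found in Arntl, 31 bases after one of its starts. Members with an E-box, a D-box or neither are referred to below only as a description.

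Each library held between 150591289 and 169978362 UMIs, where a UMI is a tag that counts a captured transcript once. After filtering, 74545 cells remained, of which 8677 with markers of a second type, 7122 with too few markers and 813 of other cell types were left out. Cells with markers of a second type were most frequent in OE-MLKL 3, at 3549 of 17633 cells. They were 1699 of 15382 in OE-Vector 1, 1303 of 18467 in OE-MLKL 1 and 2126 of 23063 in OE-MLKL 2. Cells were placed in classes by marker genes. The 4 libraries gave 2822, 7200, 7941 and 3699 cancer cells (OE-Vector 1 first, then OE-MLKL 1, 2 and 3), 1755, 2484, 2214 and 2384 macrophages, 6079, 5030, 7995 and 5539 neutrophils, and 912, 546, 626 and 707 T cells. Depth differed between libraries. The median was 25486.5, 12638, 12217 and 20421 UMIs per cancer cell and 8556, 4177.5, 4819 and 7182 per macrophage, against 1198, 738, 773 and 1415 per neutrophil and 3713.5, 3406, 2689.5 and 3153 per T cell. The summed markers of a class were far above those of the others in its own cells, for example 6409.27 CPM of the 11 T cell markers in T cells of OE-Vector 1 and 22.48 CPM in its cancer cells. For the 14 cancer markers the margin was smaller, at 2193.04 CPM in cancer cells of OE-MLKL 1 and 211.88 CPM in its neutrophils. Of these markers, Epcam and Cdh1 averaged 8.94 and 4.997 CPM in cancer cells but 10.9 and 6.47 CPM in T cells. A marker minimum 2 times as high left 2653, 3590, 5884 and 2980 cancer cells in the same library order. Mlkl itself was at 16.5 CPM in cancer cells of OE-Vector 1 and at 8.60, 12.9 and 19.7 CPM in those labelled OE-MLKL 1, 2 and 3. The libraries carrying the OE-MLKL label were thus not set apart by Mlkl. Construct transcripts that lack the 3′ end of the gene are not counted under it, and whether the construct has that end is not given in the sources used here. The group names below are those of the labels.

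Levels are given as CPM, the UMIs of a gene per 1000000 UMIs of its class in the library. Intervals are exact 95% Poisson intervals and cover counting error only. Each library is 1 tumour from 1 animal. Levels of single libraries were described without a test, and the tests of the 3 OE-MLKL libraries against the 1 OE-Vector library follow after them.

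**Figure D1:**
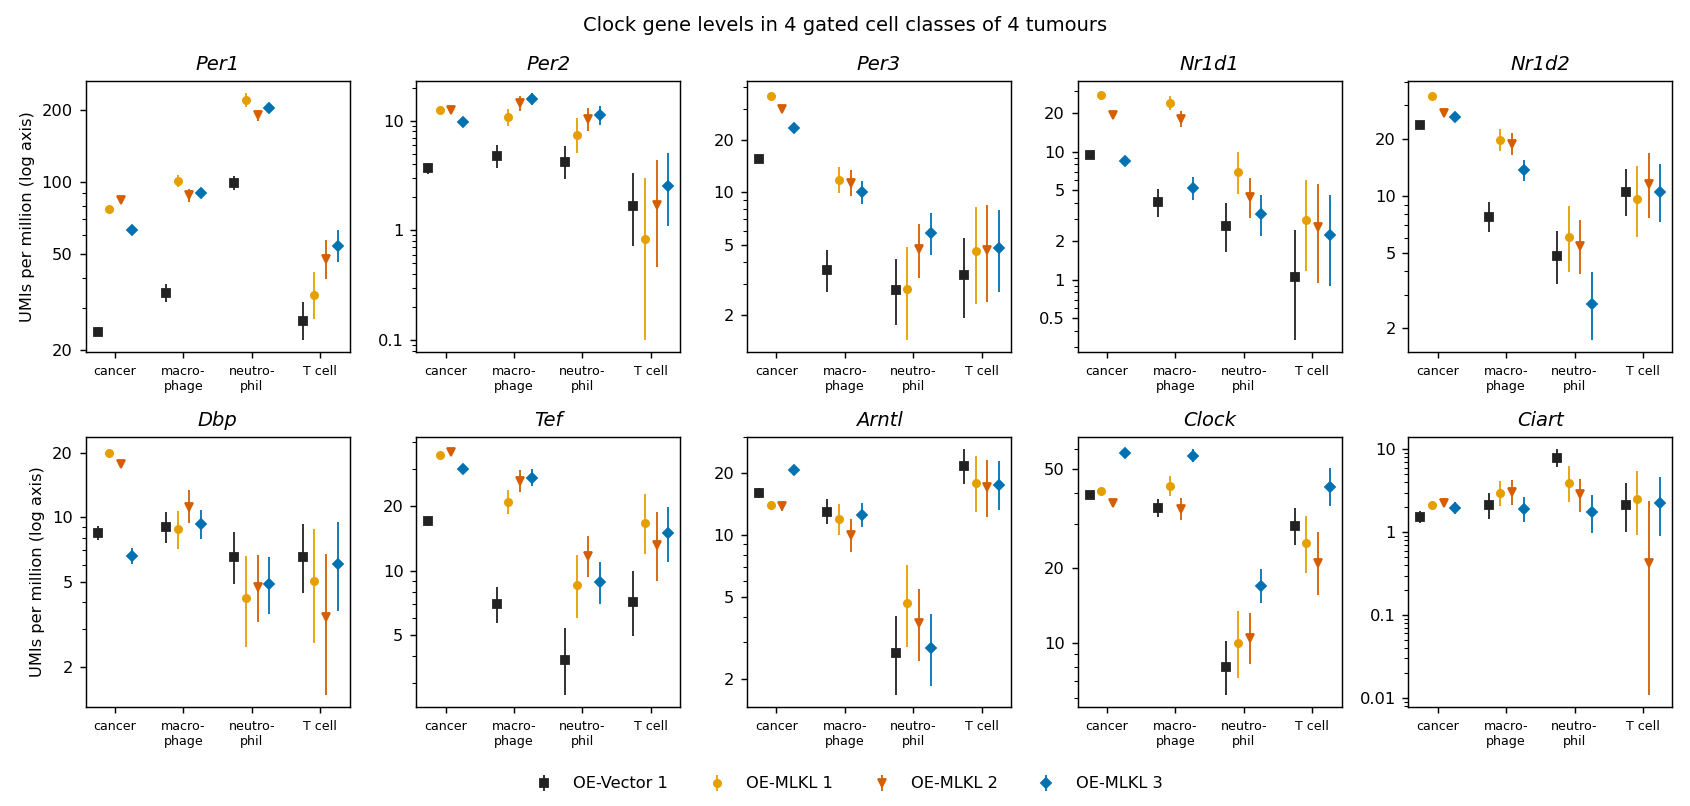
Level of each clock gene in CPM (log axis) in cancer cells, macrophages, neutrophils and T cells. Points are the 4 libraries with exact 95% Poisson intervals. Per1 ran from 23.9 CPM in cancer cells of OE-Vector 1 to 220.5 CPM in neutrophils of OE-MLKL 1, and Arntl and Clock lay lowest in neutrophils.

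The period genes encode the repressors of the loop. Per1 (chromosome 11, 69095217 to 69109960, plus strand, GRCm38) was at 23.9 CPM in cancer cells of OE-Vector 1 and at 77.6, 84.2 and 62.9 CPM in those of OE-MLKL 1, 2 and 3. In macrophages it was at 34.5 CPM in OE-Vector 1 and 101.3, 88.5 and 90.2 CPM in OE-MLKL 1, 2 and 3. Neutrophils gave 99.6 CPM in OE-Vector 1 and 220.5, 190.4 and 203.8 CPM in the others, and T cells gave 26.5, 33.9, 47.9 and 54.2 CPM. In all 4 classes OE-Vector 1 was the lowest library, and this held under each of the 6 cell settings tried. The OE-MLKL mean of 74.9 ± 10.9 CPM (SD, n = 3) was 3.14 times the OE-Vector level in cancer cells. The ratio was 2.70 in macrophages, 2.06 in neutrophils and 1.71 in T cells.

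Per2 (chromosome 1, 91415982 to 91459324, minus strand) also had OE-Vector 1 as its lowest library in cancer cells, macrophages and neutrophils. It was at 3.70 CPM in cancer cells of OE-Vector 1 (304 UMIs) and at 12.6, 12.6 and 9.72 CPM in OE-MLKL 1, 2 and 3. Macrophages gave 4.74 CPM in OE-Vector 1 and 10.8, 14.4 and 15.8 CPM in the others. Neutrophils gave 4.21, 7.43, 10.3 and 11.2 CPM. In T cells only 2 to 8 UMIs were counted per library, at 0.836 to 2.55 CPM, and the order of libraries cannot be read there.

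Per3 (chromosome 4, 151003652 to 151044665, minus strand) had its highest levels in cancer cells, with 15.6 CPM in OE-Vector 1 and 35.7, 29.9 and 23.2 CPM in OE-MLKL 1, 2 and 3. In macrophages it was at 3.59 CPM in OE-Vector 1 and at 11.8, 11.4 and 10.04 CPM in the others. Neutrophils gave 2.77, 2.79, 4.73 and 5.83 CPM on 12 to 54 UMIs, so that OE-Vector 1 and OE-MLKL 1 did not differ there. T cells gave 3.37, 4.598, 4.71 and 4.78 CPM on 11 to 16 UMIs, with overlapping intervals. The gene overlaps Camta1 on the same strand, and reads of the shared part can be assigned to either.

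The REV-ERB genes are targets of the activator pair and repressors of Arntl. Nr1d1 (chromosome 11, 98767932 to 98775333, minus strand) separated the libraries in another way than the period genes. In cancer cells it was at 9.51 CPM in OE-Vector 1 (interval 8.85 to 10.2), 27.6 CPM in OE-MLKL 1, 19.3 CPM in OE-MLKL 2 and 8.44 CPM in OE-MLKL 3 (7.82 to 9.09). Macrophages showed the same split, with 4.04 CPM in OE-Vector 1, 24.2 and 18.03 CPM in OE-MLKL 1 and 2, and 5.22 CPM in OE-MLKL 3. OE-MLKL 1 and 2 were therefore high in both classes, and OE-MLKL 3 was near OE-Vector 1. Neutrophils gave 2.65, 6.97, 4.44 and 3.24 CPM on 22 to 31 UMIs, and T cells gave 1.05, 2.93, 2.57 and 2.23 CPM on 5 to 7 UMIs. Nr1d1 overlaps Thra on the other strand.

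Nr1d2 (chromosome 14, 18204054 to 18239127, minus strand) varied less. Cancer cells gave 23.7 CPM in OE-Vector 1 and 33.6, 27.4 and 25.9 CPM in OE-MLKL 1, 2 and 3. In macrophages it was at 7.75 CPM in OE-Vector 1 and 19.8, 18.8 and 13.6 CPM in the others. The range was 2.70 to 6.04 CPM in neutrophils, lowest in OE-MLKL 3, and 9.61 to 11.6 CPM in T cells. The T cell intervals overlapped.

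Dbp and Tef encode related PAR bZIP factors, yet their libraries were ordered differently. Dbp (chromosome 7, 45705088 to 45710203, plus strand) was at 8.47 CPM in cancer cells of OE-Vector 1, 19.9 and 17.7 CPM in those of OE-MLKL 1 and 2, and 6.61 CPM in those of OE-MLKL 3. This is the split seen for Nr1d1. It was not seen for Dbp in macrophages, where the 4 libraries gave 8.97, 8.76, 11.2 and 9.26 CPM. Neutrophils gave 6.50 CPM in OE-Vector 1 and 4.18, 4.73 and 4.86 CPM in the others, and T cells gave 3.42 to 6.52 CPM on 8 to 31 UMIs. Dbp overlaps Sphk2 on the other strand.

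Tef (chromosome 15, 81802421 to 81826863, plus strand) followed Per1 and Per2. It was at 17.1 CPM in cancer cells of OE-Vector 1 and 34.8, 35.9 and 29.7 CPM in OE-MLKL 1, 2 and 3. Macrophages gave 6.98 CPM in OE-Vector 1 and 20.9, 26.3 and 27.2 CPM in the others, with an OE-MLKL mean 3.55 times the OE-Vector level. Neutrophils gave 3.85, 8.60, 11.7 and 8.86 CPM, and T cells gave 7.15, 16.7, 13.3 and 14.99 CPM. OE-Vector 1 was the lowest library in all 4 classes under each of the 6 cell settings.

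For the activator genes, OE-Vector 1 mostly lay within or close to the range of the other libraries. Arntl (chromosome 7, 113207465 to 113314126, plus strand) was at 16.02 CPM in cancer cells of OE-Vector 1, 14.0 and 13.8 CPM in OE-MLKL 1 and 2, and 20.7 CPM in OE-MLKL 3. Macrophages gave 13.01, 11.9, 9.98 and 12.5 CPM, T cells gave 21.7, 18.0, 17.1 and 17.5 CPM, and neutrophils gave 2.65, 4.65, 3.72 and 2.81 CPM on 20 to 26 UMIs. Clock (chromosome 5, 76209868 to 76304792, minus strand) was highest in OE-MLKL 3 in every class. Cancer cells gave 39.2, 40.8, 36.3 and 58.04 CPM, macrophages 34.9, 42.8, 34.6 and 56.6 CPM, neutrophils 7.95, 9.99, 10.5 and 17.0 CPM, and T cells 29.4, 25.1, 21.0 and 42.4 CPM. OE-Vector 1 lay within the OE-MLKL range for Clock in cancer cells, macrophages and T cells.

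Ciart (chromosome 3, 95878503 to 95882251, minus strand) was sparse. It was at 1.53 to 2.26 CPM in cancer cells and 1.91 to 3.06 CPM in macrophages. In neutrophils it was at 7.95 CPM in OE-Vector 1 (66 UMIs) and at 3.95, 2.86 and 1.73 CPM in OE-MLKL 1, 2 and 3, so that OE-Vector 1 was the highest library. T cells held 1 to 10 UMIs per library. Ciart overlaps an antisense gene, C920021L13Rik. Whether the counting used strand is not given in the sources used here.

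The libraries labelled OE-MLKL were compared with the one labelled OE-Vector in each class. The OE-Vector arm was 1 animal, so the construct and that animal cannot be told apart. Per1 and Per2 had the largest estimates in cancer cells and Nr1d1 and Tef in macrophages, but no member passed the test in any class. Sums of UMIs per library were tested over all genes by quasi-likelihood in edgeR, with p-values adjusted after Benjamini and Hochberg and a threshold of 0.05. With 3 libraries against 1, the spread came from the OE-MLKL libraries alone. In cancer cells 0 of 10 members were called, against 1 of 17410 genes (0.00574%). In macrophages 0 of 10 were called against 1 of 13514 genes (0.00740%), in neutrophils 0 of 10 against 0 of 12898 genes (0%), and in T cells 0 of 7 against 1 of 11321 genes (0.00883%). At an unadjusted p under 0.05 there were 3, 5, 3 and 1 members and 815, 801, 1033 and 555 genes. Per2, Nr1d1 and Ciart were too sparse in T cells to be tested.

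The log2 fold change of Per1 was 1.56 ± 0.38 (SE) in cancer cells (edgeR adjusted p = 0.93), 1.33 ± 0.31 in macrophages, 0.82 ± 0.34 in neutrophils and 0.73 ± 0.33 in T cells. For Per2 it was 1.56 ± 0.42 in cancer cells, 1.41 ± 0.35 in macrophages and 0.97 ± 0.40 in neutrophils. Tef gave 0.87 ± 0.33 in cancer cells, 1.71 ± 0.31 in macrophages (edgeR adjusted p = 0.47, the smallest among the members in any class), 1.11 ± 0.41 in neutrophils and 1.03 ± 0.42 in T cells. Per3 gave 1.52 ± 0.37 in macrophages and 0.84 ± 0.41 in cancer cells. Nr1d1 gave 1.88 ± 0.88 in macrophages and 0.90 ± 0.72 in cancer cells, the widest errors of the set. Clock and Arntl lay between -0.33 and 0.43 in every class. Ciart in neutrophils was the largest estimate below 0, at -1.74 ± 0.53 (edgeR adjusted p = 0.59).

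The median log2 fold change over the members tested was 0.79 in cancer cells, 1.20 in macrophages, 0.45 in neutrophils and -0.03 in T cells. Over all genes tested it was 0.03, 0.04, 0.04 and 0.03. DESeq2 called Per1 in cancer cells (adjusted p = 0.021) and Per1 and Tef in macrophages (adjusted p = 0.030 and 0.011), where it called 0.586% and 0.562% of all genes. Without OE-MLKL 3, edgeR called Per1 (adjusted p = 0.0087) and Per2 (adjusted p = 0.024) in cancer cells, and Per1, Nr1d1 and Tef in macrophages (adjusted p = 0.040, 0.011 and 0.024). The share of all genes called was then 3.23% in cancer cells and 1.94% in macrophages. Without OE-MLKL 1 it called Tef in macrophages (adjusted p = 0.038), beside 0.422% of all genes. The calls therefore depended on 1 library and on the tool.

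**Figure D2:**
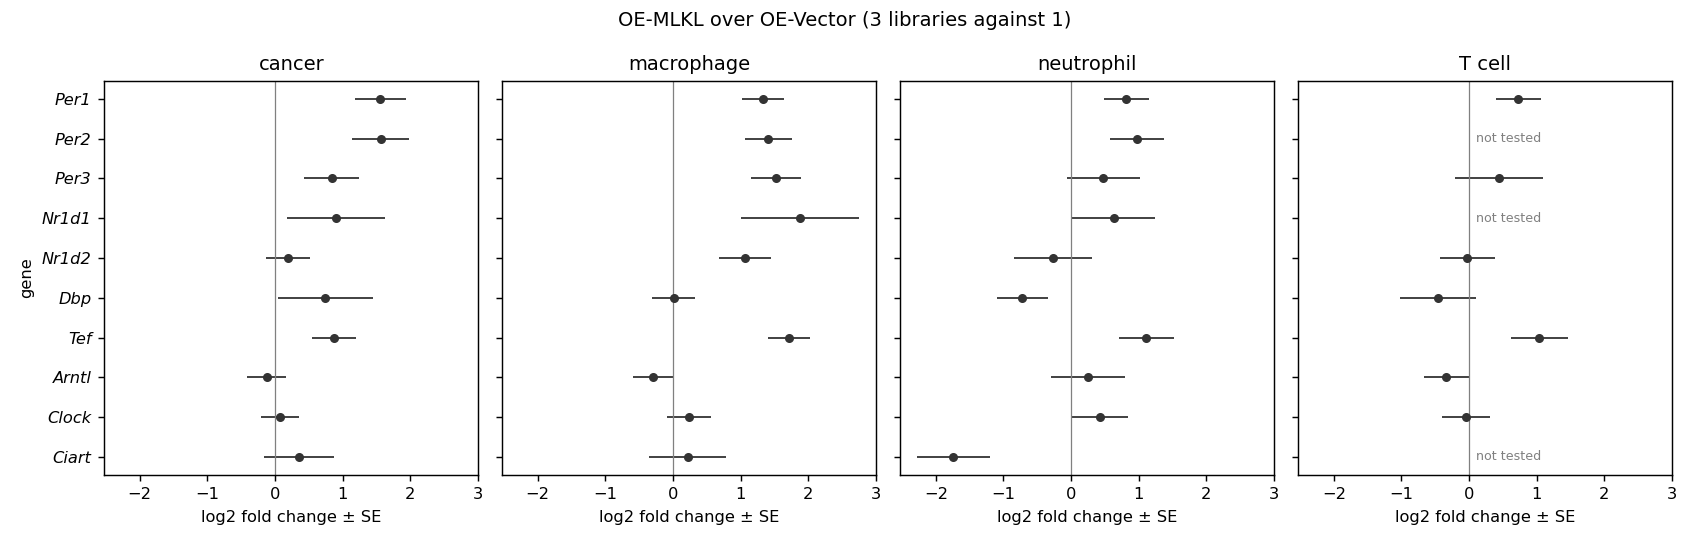
Log2 ratio of the OE-MLKL libraries to OE-Vector 1 for each clock gene in the 4 classes (3 libraries against 1). Bars are standard errors worked back from the edgeR fold change and its F statistic. Estimates for Per1 lay between 0.73 and 1.56 and those for Tef between 0.87 and 1.71, and none passed an adjusted p of 0.05.

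Read without a test, OE-Vector 1 lay below all 3 OE-MLKL libraries for 6 of 10 members in cancer cells, where 33.0% of all genes tested did so, and above all 3 for 0 of 10 (all genes 17.5%). In macrophages it was below for 6 of 10 (35.8%) and above for Arntl alone (18.3%). In neutrophils it was below for 7 of 10 (41.2%) and above for Dbp and Ciart (16.7%). In T cells it was below for Per1, Per3 and Tef of 7 (24.9%) and above for Dbp and Arntl (18.3%). Per1 and Tef were below in all 4 classes. Per3 was too, but in neutrophils only by 2.77 against 2.79 CPM and in T cells with overlapping intervals. Per2 was below in cancer cells, macrophages and neutrophils.

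Whether the OE-MLKL to OE-Vector difference of a member differed between classes was tested with an interaction term, the library being kept as a block. No member passed in any of the 6 pairs of classes. Over all genes 2 of 14017 passed between cancer cells and macrophages (0.0143%), 5 between cancer cells and neutrophils (0.0357%), 1 between macrophages and neutrophils (0.00713%) and 0 in the remaining pairs (0%). The smallest edgeR adjusted p was 0.22, for Ciart between cancer cells and neutrophils, with a difference of -2.17 ± 0.59 on the log2 scale.

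The order of the libraries across members was then set out. In cancer cells Nr1d1 and Dbp both ran from OE-MLKL 1 through OE-MLKL 2 and OE-Vector 1 down to OE-MLKL 3. Arntl ran in nearly the reverse order, from OE-MLKL 3 through OE-Vector 1 and OE-MLKL 1 down to OE-MLKL 2. Per1, Per2 and Tef ran otherwise, with OE-Vector 1 alone at the bottom and OE-MLKL 3 above it. OE-MLKL 3 thus had low Nr1d1 and Dbp beside Per1, Per2 and Tef above the OE-Vector level, while OE-Vector 1 was low in Nr1d1, Dbp, Per1, Per2 and Tef together. OE-MLKL 3 was also the library with the largest share of cells with markers of a second type. Nr1d1 and Dbp in its cancer cells stayed below OE-MLKL 1 and 2 under each of the 6 cell settings. The part of library quality in these orders was not tested. The opposite orders of Nr1d1 and Arntl were read in cancer cells only. In macrophages and in neutrophils the Arntl intervals of all libraries overlapped. In neutrophils both genes ran from OE-MLKL 1 through OE-MLKL 2 and OE-MLKL 3 down to OE-Vector 1, on few UMIs and near the level that free RNA could carry.

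**Figure D3:**
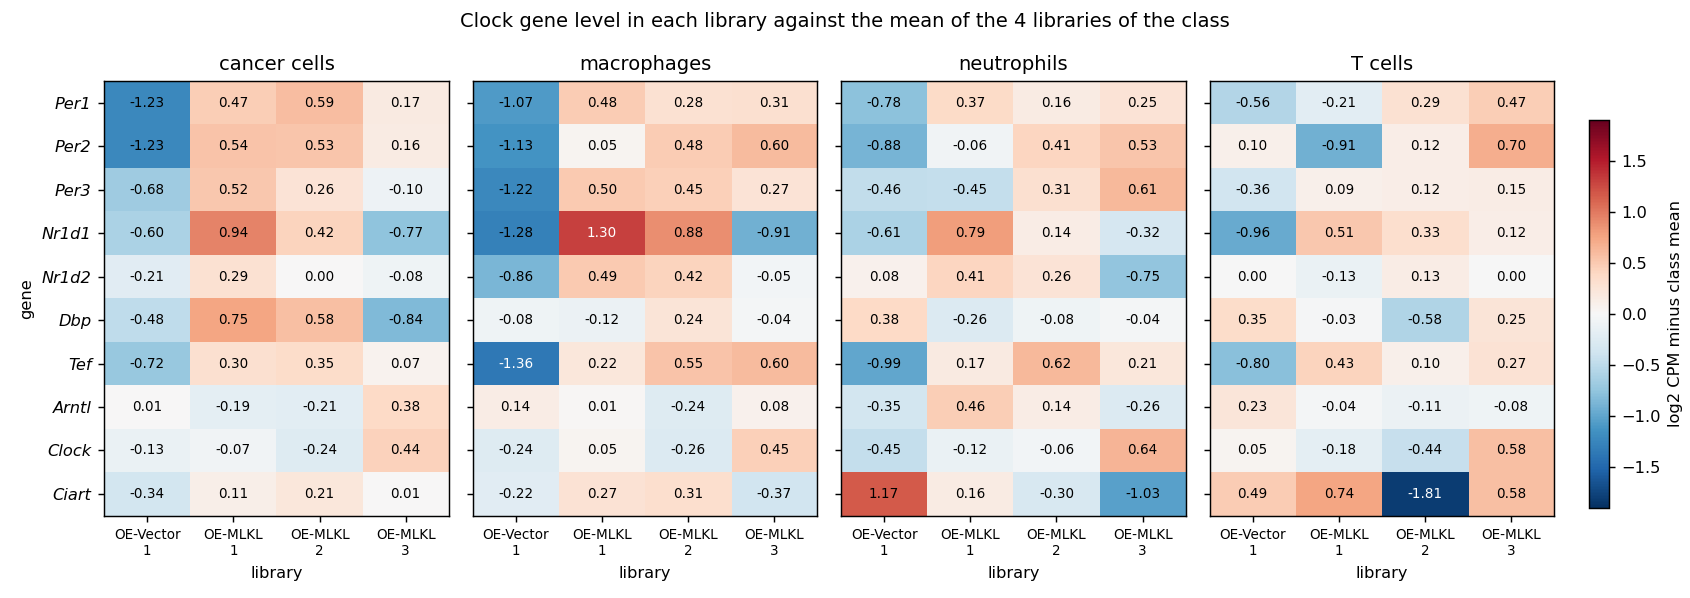
Log2 CPM of each clock gene in each library minus the mean over the 4 libraries of the class. In cancer cells Nr1d1 was 0.94 and 0.42 above its mean in OE-MLKL 1 and 2 and 0.77 below in OE-MLKL 3, whereas Per2 was 1.23 below its mean in OE-Vector 1 alone.

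Ratios of UMIs between members of a library do not depend on its scaling and are read here only between libraries. The ratio of Nr1d1 to Arntl in cancer cells was 0.593 in OE-Vector 1 (exact 95% interval 0.542 to 0.649), 1.98 in OE-MLKL 1, 1.40 in OE-MLKL 2 and 0.407 in OE-MLKL 3 (0.372 to 0.445). In macrophages it was 0.310 in OE-Vector 1 (0.230 to 0.414), 2.03 and 1.81 in OE-MLKL 1 and 2, and 0.417 in OE-MLKL 3 (0.324 to 0.534). The split thus lay the same way in gated cancer cells and macrophages, although the OE-Vector 1 intervals of the classes did not meet. In neutrophils all intervals overlapped, with ratios of 1.19 and 1.15 in OE-MLKL 2 and 3.

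The ratio of Nr1d1 to Per2, an earlier against a later gene, was 2.57, 2.20, 1.54 and 0.868 in cancer cells and 0.851, 2.24, 1.25 and 0.331 in macrophages. It was lowest in OE-MLKL 3 in both classes, with intervals that did not meet those of the other libraries. OE-Vector 1 stood at the top in cancer cells, with an interval that overlapped that of OE-MLKL 1, and below OE-MLKL 1 in macrophages, where its interval overlapped that of OE-MLKL 2. The ratio of Per2 to Arntl was lowest in OE-Vector 1 in cancer cells, at 0.231 against 0.900, 0.912 and 0.469, and in macrophages, at 0.365 against 0.904, 1.45 and 1.26. With 1 sampling of each tumour and no recorded hour, these values give an order of libraries and not a time of day.

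**Figure D4:**
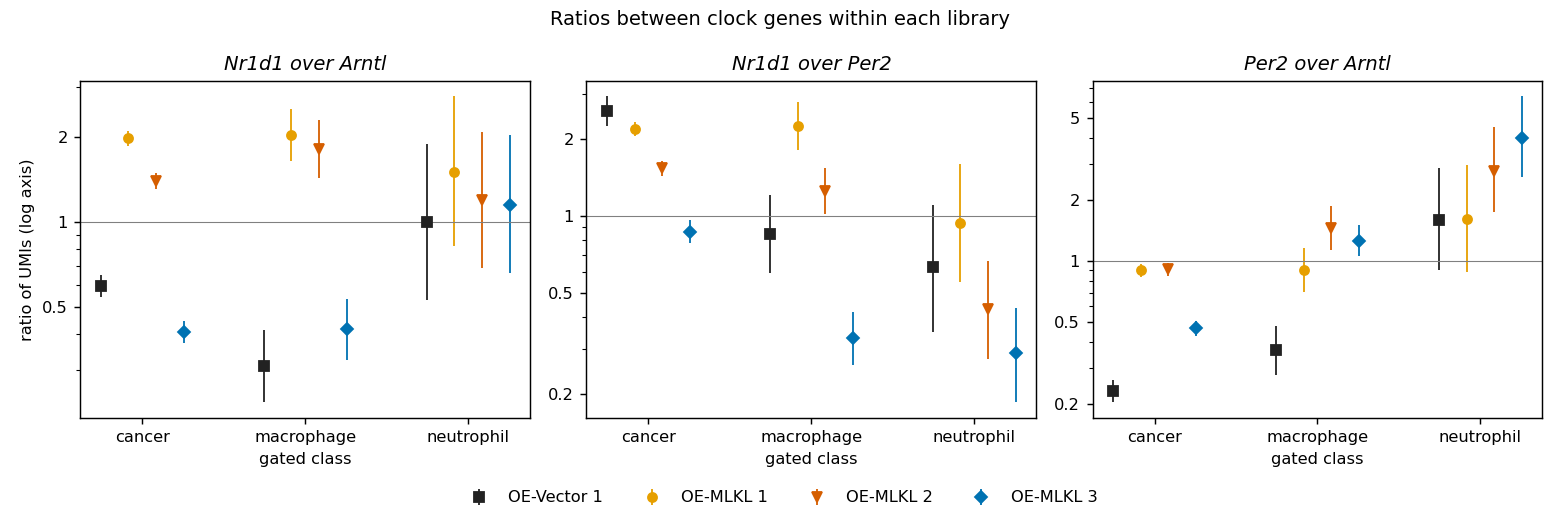
Ratio of UMIs of Nr1d1 to Arntl, Nr1d1 to Per2 and Per2 to Arntl within each library (log axis), with exact 95% intervals, in cancer cells, macrophages and neutrophils. Nr1d1 to Arntl was 1.40 to 2.03 in OE-MLKL 1 and 2 and 0.310 to 0.593 in OE-Vector 1 and OE-MLKL 3 in cancer cells and macrophages.

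Depth moved with the Nr1d1 split, since OE-MLKL 1 and 2 had the shallower cancer cells and macrophages. When each cell was thinned to 1000 UMIs, the expected share of cancer cells with an Nr1d1 UMI ran 0.952%, 3.01%, 2.09% and 0.948% in the library order used above. Without thinning it was 19.1%, 29.9%, 22.2% and 14.3%. In macrophages the thinned shares were 0.444%, 2.50%, 1.84% and 0.565%, and those before thinning 3.36%, 10.2%, 8.31% and 3.61%. OE-MLKL 1 and 2 thus had the higher shares both with and without thinning. Whether depth had a part in the Nr1d1 levels was not tested. The thinned shares used the 2774, 7184, 7889 and 3638 cancer cells and the 1698, 2451, 2179 and 2333 macrophages that were deep enough. No class is known to lack these genes, and the part of free RNA is given below in its place.

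Genes that glucocorticoids induce are set beside Per1 and Per2 because those hormones act on both outside the loop. Of the 6 genes listed, Fkbp5, a chaperone of the glucocorticoid receptor, was at 41.3 CPM in cancer cells of OE-Vector 1 and 157.5, 107.4 and 86.5 CPM in OE-MLKL 1, 2 and 3. In macrophages it was at 44.7 CPM and 301.7, 347.4 and 155.1 CPM. Tsc22d3, which encodes the glucocorticoid-induced leucine zipper protein, was at 32.6, 165.7, 89.8 and 60.3 CPM in cancer cells and at 104.8, 411.2, 302.9 and 226.5 CPM in macrophages. Both were lowest in OE-Vector 1 in all 4 classes, as Per1 was. Of all genes tested, 33.0% were lowest in that library in cancer cells, 35.8% in macrophages, 41.2% in neutrophils and 24.9% in T cells. The share of genes lowest there in all 4 classes was not computed. Klf9, a zinc finger factor, was at 12.6 CPM in neutrophils of OE-Vector 1 and 327.1, 411.1 and 94.3 CPM in the others. Zbtb16 was lowest in OE-Vector 1 in cancer cells, macrophages and neutrophils but not in T cells. Sgk1 was lowest in OE-Vector 1 in cancer cells, neutrophils and T cells, but highest there in macrophages, at 242.9 CPM against 195.3 to 227.2 CPM. Dusp1, which encodes a phosphatase of MAP kinases, was lowest in OE-Vector 1 in cancer cells, macrophages and T cells, but in neutrophils its 4021.7 CPM there was above the 3915.7 CPM of OE-MLKL 2.

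None of the 6 passed the edgeR test in any class, a test that hardly any gene passed. Their median log2 fold change was 1.12 in cancer cells, 1.99 in macrophages, 0.73 in neutrophils and 1.0045 in T cells. Their part in the Per1 and Per2 levels was not tested.

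**Figure D5:**
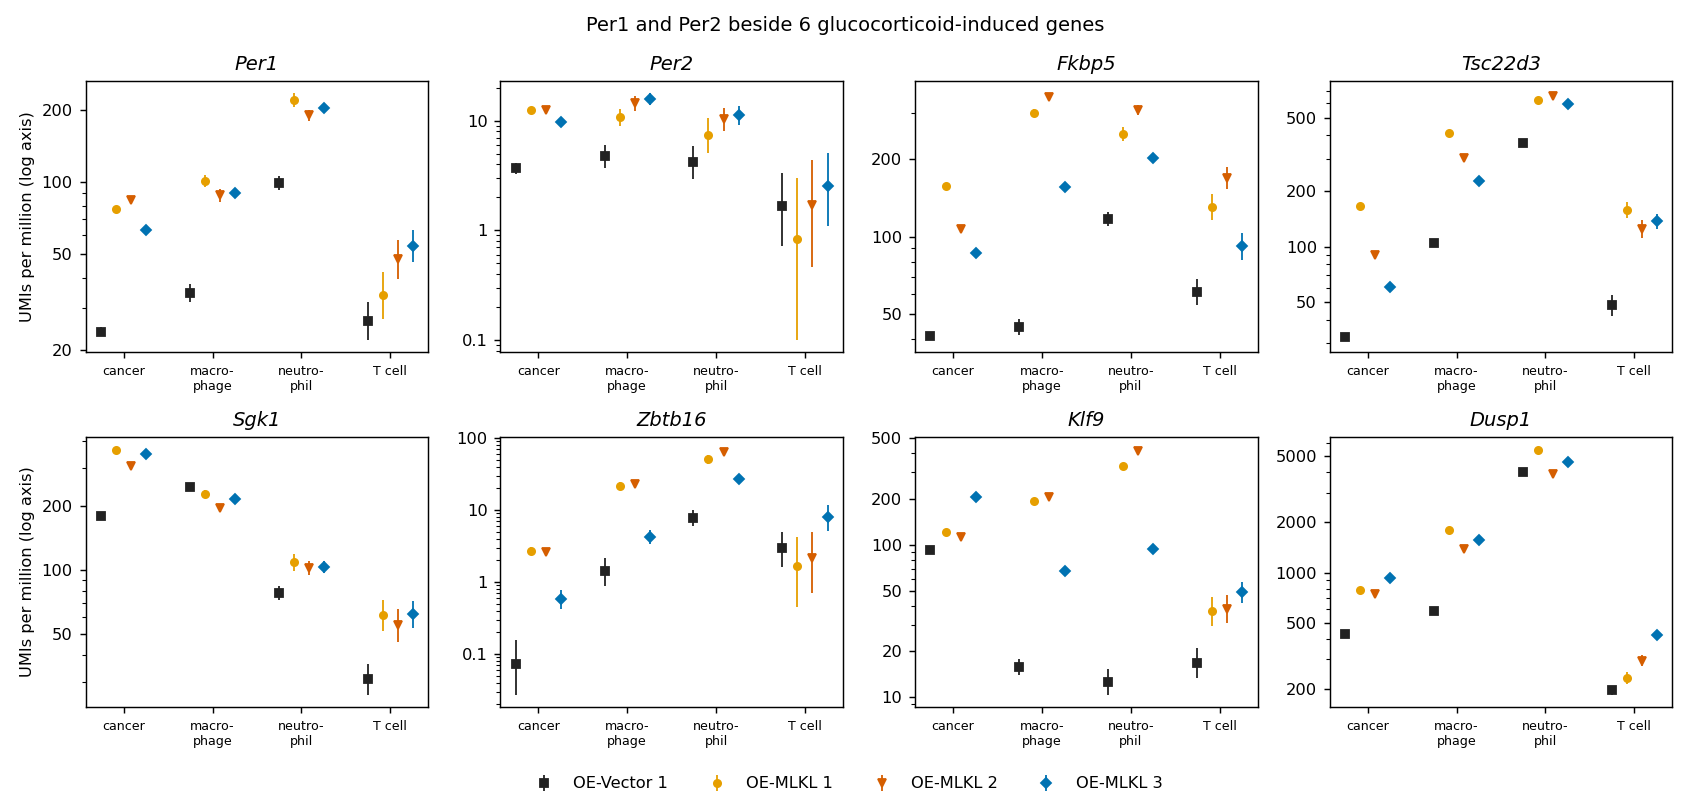
Per1 and Per2 beside 6 glucocorticoid-induced genes, in CPM (log axis) with exact 95% Poisson intervals, for 4 classes and 4 libraries. OE-Vector 1 was the lowest library for Per1, Fkbp5 and Tsc22d3 in all 4 classes, and for Sgk1 it was the highest in macrophages. Within a class it was the lowest for 24.9% to 41.2% of all genes tested.

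Per1 also responds to acute stimuli, and the tumours were digested warm before loading. Of 10 immediate-early and heat-shock genes, 0 passed the edgeR test in any class, as was so for nearly all genes. Fos was lowest in OE-Vector 1 in cancer cells, at 1324.9 CPM against 2404.4, 2225.4 and 3285.9 CPM, and in the other classes too. Within a class, 24.9% to 41.2% of all genes tested were lowest in that library. Jun was highest in OE-MLKL 3 in cancer cells, at 1642.7 CPM against 549.5 to 731.8 CPM, and so was Egr1, at 2123.1 CPM against 879.05 to 1214.7 CPM. Hspa1b, a heat-shock chaperone gene, went the other way in macrophages, at 34.3 CPM in OE-Vector 1 against 3.76 to 5.72 CPM, and in neutrophils and T cells it was highest in OE-Vector 1 too. The median log2 fold change of the list was 0.61 in cancer cells, 0.38 in macrophages, -0.43 in neutrophils and -0.26 in T cells. The part of these genes in the Per1 level was not tested.

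The other clock genes were described by a list of 12 (Cry1, Cry2, Npas2, Rora, Bhlhe40, Bhlhe41, Nfil3, Hlf, Csnk1d, Csnk1e, Btrc and Usp2). None of those tested passed the OE-MLKL against OE-Vector test in any class, as was so for nearly all genes. The test covered 12 of them in cancer cells, 10 in macrophages, 11 in neutrophils and 11 in T cells. Their median log2 fold change was 0.12, 0.08, 0.30 and 0.16 in that order. Cry2, a cryptochrome that partners the period proteins, was lowest in OE-Vector 1 in all 4 classes, for example 11.1 CPM against 14.4, 22.1 and 28.6 CPM in cancer cells. In a single class, 24.9% to 41.2% of all genes tested had that library lowest. Cry1 was at 43.1 CPM in neutrophils of OE-Vector 1 and 89.0, 87.5 and 55.7 CPM in the others. Nfil3, whose protein competes with the PAR bZIP factors at the D-box, was at 37.2, 46.8, 40.5 and 59.01 CPM in cancer cells, where OE-MLKL 3 was highest, as it was for Arntl and Clock.

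Levels were next compared between the 4 classes, with the library as a block because the classes of a library came from 1 tumour. Each class comparison was fitted on 16 sums (4 classes in 4 libraries) and 14017 genes. Per1 was highest and Arntl and Clock were lowest in neutrophils in every library. Most genes differed between any 2 classes, so that a call of a member is no sign of a clock difference by itself. Between cancer cells and macrophages 4 of 10 members were called, against 69.2% of all genes, and 2 of 10 without the block, against 54.7%. The counts were 9 against 81.6% for cancer cells and neutrophils, 8 against 65.8% for cancer and T cells, 8 against 70.4% for macrophages and neutrophils, 9 against 60.7% for macrophages and T cells, and 7 against 72.3% for neutrophils and T cells.

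Per1 was highest in neutrophils. Its log2 fold change was 1.88 ± 0.17 over cancer cells and 1.31 ± 0.17 over macrophages (edgeR adjusted p = 6.81e-08 and 5.89e-06), and that of T cells over neutrophils was -2.37 ± 0.18 (edgeR adjusted p = 2.08e-08). All 4 libraries had their highest Per1 level in neutrophils. Macrophages were above cancer cells by 0.56 ± 0.17 (edgeR adjusted p = 0.0070), a call lost with scaling by library size (adjusted p = 0.059) and without the block (adjusted p = 0.23). T cells were below cancer cells at -0.49 ± 0.18 (edgeR adjusted p = 0.023), and this call was lost without OE-MLKL 1 (adjusted p = 0.16), without OE-MLKL 2 (adjusted p = 0.12) and without the block (adjusted p = 0.17). The same call was also lost with DESeq2 (adjusted p = 0.087) and with a marker minimum 2 times as high (edgeR adjusted p = 0.072).

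Per2 did not differ detectably among cancer cells, macrophages and neutrophils by the edgeR test, with 0.44 ± 0.20 for macrophages over cancer cells (edgeR adjusted p = 0.061). That comparison passed in 7 alternatives, among them DESeq2 (adjusted p = 0.044). T cells were lowest in Per2, at -2.30 ± 0.32 against cancer cells and -2.74 ± 0.32 against macrophages. Per3 was highest in cancer cells, with macrophages at -1.36 ± 0.20, neutrophils at -2.33 ± 0.23 and T cells at -2.51 ± 0.26 against them. Neutrophils and T cells did not differ detectably in Per3 (-0.18 ± 0.31).

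Nr1d1 did not differ detectably between cancer cells and macrophages (-0.30 ± 0.20, edgeR adjusted p = 0.19), except with scaling by library size (adjusted p = 0.037). It was lower in neutrophils, at -1.57 ± 0.23 against cancer cells, and in T cells, at -2.82 ± 0.31. T cells over neutrophils gave -1.24 ± 0.37 (edgeR adjusted p = 0.0068), lost without the block (adjusted p = 0.13). Both classes lay near the level that free RNA could carry, at 1.18 to 1.95 times it in T cells and 1.59 to 1.99 in neutrophils. That level is described below, and its part in this difference was not tested. Nr1d2 was highest in cancer cells, with macrophages at -0.73 ± 0.18 and neutrophils at -2.29 ± 0.21 against them. T cells lay above neutrophils in Nr1d2, by 0.95 ± 0.25 (edgeR adjusted p = 0.0033), and this call was lost without OE-MLKL 3 (adjusted p = 0.054). T cells lay below macrophages in it at -0.61 ± 0.22 (edgeR adjusted p = 0.027), which was lost without OE-MLKL 1 (adjusted p = 0.16), OE-MLKL 2 (adjusted p = 0.12) or OE-MLKL 3 (adjusted p = 0.055). That call was also lost without the block (edgeR adjusted p = 0.062) and with limma-voom (adjusted p = 0.059). Scaling by library size (edgeR adjusted p = 0.13) and a mitochondrial maximum of 5% (edgeR adjusted p = 0.053) lost it too.

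Dbp did not differ detectably between cancer cells and macrophages (-0.19 ± 0.29) nor between neutrophils and T cells (-0.20 ± 0.40). It was lower in neutrophils and T cells than in cancer cells, at -0.97 ± 0.32 and -1.18 ± 0.36, and both calls were lost without OE-MLKL 1 (adjusted p = 0.094 and 0.053) or OE-MLKL 2 (adjusted p = 0.098 and 0.083). In addition, Dbp lost the first call with a marker minimum 2 times as high (edgeR adjusted p = 0.061) and the second with limma-voom (adjusted p = 0.054). Its differences of -0.78 ± 0.33 between macrophages and neutrophils and -0.98 ± 0.37 between macrophages and T cells were lost without OE-MLKL 2 (adjusted p = 0.15 and 0.12), and the first also without OE-MLKL 1 (adjusted p = 0.061) or OE-MLKL 3 (adjusted p = 0.095). The first was also lost with DESeq2 (adjusted p = 0.11), limma-voom (adjusted p = 0.082), without the block (adjusted p = 0.055) and under 4 other cell settings, and the second with scaling by library size, limma-voom and deeper cells. Tef was lower in neutrophils, at -1.60 ± 0.17 against cancer cells and -1.18 ± 0.18 against macrophages, and in T cells, at -1.17 ± 0.18 against cancer cells. Macrophages were at -0.42 ± 0.16 against cancer cells in Tef, a call lost without OE-Vector 1 (adjusted p = 0.30), OE-MLKL 1 (adjusted p = 0.092) or OE-MLKL 2 (adjusted p = 0.061), with DESeq2 (adjusted p = 0.094), under 2 other cell settings and without the block (adjusted p = 0.42).

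Both activator genes were lowest in neutrophils. Arntl was at -1.98 ± 0.18 against cancer cells and -1.75 ± 0.19 against macrophages, and T cells stood 2.22 ± 0.20 above neutrophils (edgeR adjusted p = 7.28e-08, 8.86e-07 and 1.01e-07). Clock was at -1.67 ± 0.12 against cancer cells and -1.82 ± 0.12 against macrophages, and T cells stood 1.12 ± 0.13 above neutrophils (edgeR adjusted p = 3.38e-09, 5.11e-09 and 1.34e-06). In every library the neutrophil level was the lowest of the 4 classes for both genes. Clock was lower in T cells than in cancer cells (-0.55 ± 0.11). Arntl did not differ detectably between cancer cells and macrophages (-0.23 ± 0.15), except with scaling by library size (-0.44, adjusted p = 0.023), or between cancer and T cells (0.24 ± 0.16). T cells over macrophages gave 0.47 ± 0.17 (edgeR adjusted p = 0.023), lost without OE-Vector 1 (adjusted p = 0.095), OE-MLKL 1 (adjusted p = 0.054) or OE-MLKL 2 (adjusted p = 0.12). This Arntl call was also lost with no low-count filter (edgeR adjusted p = 0.12). Ciart was higher in neutrophils than in cancer cells by 1.28 ± 0.37 (edgeR adjusted p = 0.0053), but not without OE-Vector 1 (adjusted p = 0.070). T cells were below neutrophils in Ciart at -1.39 ± 0.50 (edgeR adjusted p = 0.021), which was also lost without OE-Vector 1 (adjusted p = 0.12) and with scaling by library size (adjusted p = 0.055).

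Of the 11 other clock genes tested between classes, 9 were called between cancer cells and macrophages, 10 between cancer cells and neutrophils and 9 between cancer and T cells, against 69.2%, 81.6% and 65.8% of all genes. Between macrophages and neutrophils 10 were called (all genes 70.4%), between macrophages and T cells 7 (60.7%) and between neutrophils and T cells 7 (72.3%). Cry1 was higher in neutrophils than in cancer cells by 3.21 ± 0.20 on the log2 scale, beside the higher Per1. Usp2, a ubiquitin protease that stabilises clock proteins, was higher in neutrophils by 2.92 ± 0.18 and in macrophages by 2.35 ± 0.18. Rora, which activates Arntl at the REV-ERB element, was higher in T cells than in cancer cells by 6.13 ± 0.23, and Hlf, another PAR bZIP gene, by 4.97 ± 0.42.

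RNA released from broken cells is captured with every cell and sets a floor under low levels. Cancer markers stood in macrophages at 7.04% to 12.8%, in neutrophils at 10.1% to 15.1% and in T cells at 4.64% to 10.03% of their level in barcodes of at most 100 UMIs, which hold mostly free RNA. This marker signal was highest in OE-MLKL 3 in each of these classes. If all of that signal were free RNA, it would carry a calculable level of each member. Per1 in neutrophils was 10.6 to 16.6 times this level, and Arntl and Clock in T cells were 14.05 to 31.3 and 12.5 to 16.4 times. By contrast, neutrophil levels were only 1.59 to 1.99 times it for Nr1d1, 0.928 to 2.18 times for Nr1d2, 1.13 to 2.76 times for Per3, 1.89 to 2.48 times for Tef, 1.498 to 3.37 times for Arntl and 2.68 to 3.33 times for Clock. Neutrophil Dbp was 1.76 to 6.16 times it. In T cells Nr1d1 was 1.18 to 1.95 times it and Per2 1.29 to 5.96 times. Those low levels are upper limits on what the cells held. In macrophages every member was at least 3.24 times this level in each library.

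The share of cells with a UMI differed between classes for Arntl as well. After thinning to 1000 UMIs the share of cells with an Arntl UMI was 2.47%, 1.99%, 2.26% and 1.77% in T cells, in the same library order, against 0.205%, 0.265%, 0.431% and 0.188% in neutrophils. Before thinning the shares were 10.3%, 6.96%, 6.39% and 7.36% in T cells and 0.345%, 0.398%, 0.325% and 0.469% in neutrophils. For Per1 the thinned shares in neutrophils were 9.21%, 19.1%, 15.7% and 18.1%, against 2.46%, 7.64%, 8.41% and 6.03% in cancer cells. Neutrophils deep enough for this numbered 4491, 1106, 1834 and 5032, a minority of the class in OE-MLKL 1 and 2. Before thinning the Per1 shares were 12.2%, 17.0%, 14.9% and 27.2% in neutrophils and 45.4%, 61.6%, 63.3% and 65.3% in cancer cells.

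Likeness between members was described over the 16 sums, as Pearson's r of log2(CPM + 1) after each class mean was removed. The points share libraries and depth, and r is given without a test. Per1 was most like Per2 (r = 0.888), Tef (0.867) and Per3 (0.832), and Nr1d1 was like Nr1d2 (0.751). Nr1d1 was also more like Per1 (0.645), Per3 (0.635), Tef (0.597) and Per2 (0.400) than like Dbp (0.317). Its split shared with Dbp in cancer cells was thus not seen over all 16 sums. The lowest r among all pairs of members was that of Dbp and Arntl (-0.562), and Arntl had r of -0.435 with Per3, -0.297 with Nr1d1 and -0.107 with Per1. Over 9012 genes with a mean of at least 10 CPM, the 5 genes most like Dbp were Nudt18 (r = 0.883), Uap1l1, Dnase2a, Gnb2 and Abca7, and those most like Arntl were Tmem209 (r = 0.879), Tial1, Cldnd1, Dcp2 and Tdp2.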

How the data were processed

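Droplet-based 3′ single-cell RNA sequencing was performed on 4 tumours with a count matrix. The deposited files hold raw UMI counts per gene and barcode, which the authors made with Cell Ranger and did not filter or normalise. Cell Ranger is named as version 2.1.1 in the submitters' processing notes and 7.1.0 in the file headers, and the methods name another. The build was mm10. Whether intronic reads were counted is not given in the sources used here. Gene positions came from GENCODE vM21 (GRCm38), which held 32158 of the 32285 gene identifiers, and promoters from RefSeq (GRCm38.p6).

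The files held 10166658 barcodes. The filter of the study (over 200 genes, under 10% mitochondrial UMIs) left 92392, and a minimum of 500 UMIs and a maximum of 5% haemoglobin UMIs left 74545. In OE-MLKL 3 these numbers were 27961 and 17633, against 17416 and 15382 in OE-Vector 1. They were 20738 and 18467 in OE-MLKL 1, and 26277 and 23063 in OE-MLKL 2. Of the 74545 cells, 1215 had a barcode that was also a cell in another library. Classes were gated on markers per 10000 UMIs: at least 10 with 3 distinct markers for cancer cells, 100 with 3 for macrophages and neutrophils, and 15 with 3 for T cells. These minimums were set after the marker distributions had been seen. The 14 cancer markers were Krt8, Krt18, Krt19, Krt7, Epcam, Cdh1, Cldn4, Cldn7, Msln, Ehf, Tnc, Cadm1, Col18a1 and Fst. No copy-number step was run, whereas the paper used one to part cancer cells from diploid duct cells. The cancer class can thus hold host duct cells. A cell with 0.5 of the minimum of a second type and 2 of its markers was left out as mixed, which is how doublets were treated, and no doublet caller was run.

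UMIs were summed per library and class and tested with edgeR 4.0.16 (quasi-likelihood, TMM, filterByExpr, Benjamini-Hochberg adjustment over all genes, R 4.3.3), against DESeq2 1.42.0 and limma-voom 3.58.1. The standard errors given with edgeR estimates are the absolute log2 fold change over the square root of its F statistic, as edgeR returns none. OE-MLKL and OE-Vector were compared within each class without a block, with the spread of the lone OE-Vector library assumed like that of the others. Classes were compared with the library as a block, since the classes of a library came from 1 tumour. The fits were tested on simulated data. Nothing says that the tumours of a group came from separate cultures of injected cells. Thinned shares are expected values computed exactly. Python 3.11.15, numpy 2.4.6, pandas 2.3.3 and scipy 1.17.1 were used. PCR duplicates are removed by UMIs, and intervals cover counting error only.

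The members and the lists of other clock, glucocorticoid-induced and immediate-early genes were chosen with earlier results of these data known. All 10 members were named, the other lists by their counts with values for genes called and up to 6 more, and the 5 genes most like Dbp and Arntl. The immediate-early and glucocorticoid examples were chosen after their values were seen. The alternatives were other scaling, tests, filters, gates and left-out libraries. No count matrix of OE-Vector 2 or 3 was among the files used here. Of the other clock genes first listed, 2 are not reported here.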

Additional observations from a re-analysis of the deposited data

Results flagged for a closer look

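Among the 40 sets of 4 libraries (10 members in 4 classes), 1 had a library far from the others by Dixon's ratio. This was Per3 in T cells, where the gap between OE-Vector 1 (3.37 CPM, 16 UMIs) and the nearest library was 0.869 of the whole range. The other libraries gave 4.598, 4.71 and 4.78 CPM on 11 to 15 UMIs, and all 4 counting intervals overlapped. Chance flags about 1 in 20 sets. The interaction test passed for no member.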

How the results depend on the processing

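Over 1284 alternative values of single members, 1183 kept their direction and their side of the threshold, 51 lost a call, 25 gained one and 25 turned sign. The number of members called between OE-MLKL and OE-Vector was 0 in each class, and became 1 in cancer cells and 2 in macrophages with DESeq2, which called 102 and 76 of all genes against 1 and 1. Leaving out 1 library gave 0 to 2 in cancer cells and 0 to 3 in macrophages, the highest without OE-MLKL 3, where 547 and 254 of all genes were called. No paired analysis was made, since nothing in the sources used here pairs OE-MLKL with OE-Vector tumours. Between cancer cells and macrophages 2 members were called with no replicate block in place of 4 (all genes 7670 in place of 9700), and the counts of the other class comparisons stayed within 1.5 times. OE-Vector 1 was the lowest library in 22 to 26 of 40 member and class pairs under the cell settings, against 23. Of 40 levels in cancer cells, 24 left their counting interval with a mitochondrial maximum of 5% and 16 with a marker minimum 2 times as high. Scaling by library size moved the median log2 fold change of all genes from -0.26 to -0.54 between cancer cells and neutrophils and from 0.04 to 0.26 for OE-MLKL over OE-Vector in neutrophils.

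The log2 fold changes that turned sign were as follows. For OE-MLKL over OE-Vector, scaling by library size gave 0.012 (Arntl, cancer cells), 0.0070 (Nr1d2, T cells) and 0.013 (Clock, T cells). A mitochondrial maximum of 5% gave 0.16 (Arntl) and -0.12 (Ciart) in cancer cells, -0.042 (Dbp) in macrophages and 0.15 (Nr1d2) in T cells. Dbp in macrophages gave -0.013 with limma-voom and -0.012 with no low-count filter. Keeping mixed cells gave -0.071 (Ciart, macrophages) and 0.12 (Nr1d2, neutrophils), and leaving out shared barcodes gave 0.0074 (Nr1d2, T cells). Between classes, scaling by library size gave -0.052 (Clock, cancer cells to macrophages), -0.17 (Per2, cancer cells to neutrophils), 0.095 (Per3) and 0.081 (Dbp), the last pair from neutrophils to T cells. A marker minimum 2 times as high gave 0.012 (Dbp, cancer cells to macrophages) and 0.15 (Ciart, cancer to T cells). Leaving out 1 library in turn moved Clock from -0.041 (without OE-MLKL 3) to 0.19 in cancer cells and from -0.28 to 0.11 (without OE-MLKL 2) in T cells. It moved Dbp in macrophages from -0.11 (without OE-MLKL 2) to 0.084. It moved Nr1d2 from -0.50 to 0.046 in neutrophils and from -0.13 to 0.074 in T cells, both highest without OE-MLKL 3. Dbp from cancer cells to macrophages ran from -0.44 to 0.13 (without OE-MLKL 1), and Ciart from cancer to T cells from -0.24 to 0.24 (without OE-MLKL 2). The cause was not tested. Few UMIs per library limit Per2, Nr1d1 and Ciart in T cells.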
